A study of Mus musculus with 9 samples.

Results

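The genes described here encode 10 transcription factors that set up and maintain the heart muscle lineage: Gata4, Gata6, Nkx2-5, Tbx5, Tbx20, Mef2a, Mef2c, Mef2d, Hand2 and Srf. They were taken by symbol from a table of read counts for 55367 gene symbols, and all 10 passed the filter on low counts that left 15138 genes for testing. RNA was sequenced from mouse left ventricle, infarct and border zone included, in 9 libraries. The MI+BPD group (3 libraries) is myocardial infarction with BPD treatment, the MI group (3 libraries) is myocardial infarction without it, and the Sham group (3 libraries) is sham surgery. The study's text places the infarcted tissue at day 14 after infarction, and no day was assigned to the Sham libraries. That text describes BPD as treatment aimed at the proliferative phase of healing. The sources used here do not spell out BPD, and they give neither its dose nor the strain, age or pooling of the mice. The sample titles give each library its own heart number, but no source used here states that these were separate animals. The p-values therefore measure the spread between these libraries, which may be technical.

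These factors bind DNA side by side at heart enhancers and promoters. GATA zinc-finger factors, the homeodomain factor NKX2-5 and T-box factors bind each other on shared target genes, among them Nppa and Gja5. MEF2 proteins and SRF are MADS-box factors: MEF2 drives contractile genes and is held back by class II histone deacetylases, while SRF binds CArG boxes and turns on either muscle or growth genes depending on its partner, myocardin, a myocardin-related factor or an ETS factor. HAND2 is a basic helix-loop-helix factor of the right ventricle and of the epicardium. Several of them, given together, can turn mouse fibroblasts into cardiomyocyte-like cells. Genes of this kind are also transcribed outside heart muscle: GATA4, GATA6 and HAND2 in fibroblasts and epicardium, TBX20 in endocardium, MEF2C in endothelium, and SRF in nearly all cells.

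Promoter sequence is shown for the genes on which the results turn: Tbx20, the member that rose, Hand2, the member with the second-lowest fold change, Srf, whose targets are counted below, and the target genes Nppa and Nppb. Each line gives the 250 bases before the RefSeq start in build GRCm38.p6, written 5′ to 3′ on the strand of the gene. Capitals mark matches on either strand to the GATA core, spelled GATAA, to an element bound by NKX2-5, spelled AAGTG, and to a T-box core, spelled GGTGT, in Tbx20, Hand2, Nppa and Nppb, and to the CArG box in Srf.
Tbx20 (chr9:24774304-24774553, minus strand): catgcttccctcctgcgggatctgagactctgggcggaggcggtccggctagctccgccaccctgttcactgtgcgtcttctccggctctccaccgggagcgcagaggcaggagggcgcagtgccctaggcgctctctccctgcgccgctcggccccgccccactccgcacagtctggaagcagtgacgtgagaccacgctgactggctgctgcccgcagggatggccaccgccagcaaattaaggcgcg
Hand2 (chr8:57320733-57320982, plus strand): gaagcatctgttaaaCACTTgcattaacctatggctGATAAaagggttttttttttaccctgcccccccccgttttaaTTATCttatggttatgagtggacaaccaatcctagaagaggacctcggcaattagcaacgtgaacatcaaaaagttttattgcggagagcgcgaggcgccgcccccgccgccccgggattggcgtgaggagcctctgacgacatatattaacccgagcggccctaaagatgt
Srf (chr17:46556163-46556412, minus strand): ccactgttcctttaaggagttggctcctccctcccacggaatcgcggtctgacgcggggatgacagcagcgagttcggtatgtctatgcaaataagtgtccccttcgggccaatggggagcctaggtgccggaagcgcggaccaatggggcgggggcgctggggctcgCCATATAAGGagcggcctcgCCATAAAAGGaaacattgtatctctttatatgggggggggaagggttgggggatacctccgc
Nppa (chr4:148000472-148000721, plus strand): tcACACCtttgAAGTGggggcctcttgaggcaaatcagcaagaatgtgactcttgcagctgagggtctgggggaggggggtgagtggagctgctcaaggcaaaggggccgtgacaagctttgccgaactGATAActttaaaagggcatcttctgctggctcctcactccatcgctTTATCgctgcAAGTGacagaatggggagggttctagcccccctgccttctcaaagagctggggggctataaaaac
Nppb (chr4:147985650-147985899, plus strand): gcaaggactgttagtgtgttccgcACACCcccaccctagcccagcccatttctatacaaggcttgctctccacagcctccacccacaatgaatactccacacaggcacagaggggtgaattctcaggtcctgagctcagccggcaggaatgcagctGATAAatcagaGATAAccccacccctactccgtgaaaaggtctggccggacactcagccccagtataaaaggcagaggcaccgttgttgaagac

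The Tbx20 window held no match to any of these motifs, to the MEF2 element or to an E-box. This was not particular to Tbx20. The window of Mef2d, not printed, held none of them either, and that of Nkx2-5 held only an E-box. Both of these genes were lower in MI than in Sham. The Hand2 window held the GATA core 2 times and the NKX2-5 element 1 time. The Srf window held 2 CArG boxes, at bases -82 to -73 and -62 to -53 counted from the start, and 1 NKX2-5 element that is not capitalised. The Nppa window held the GATA core 2 times, the NKX2-5 element 2 times and the T-box core 1 time, and the Nppb window held the GATA core 2 times and the T-box core 1 time. The CArG box is rare in such windows, with a match in 1.47% of 32851 windows of the same length, and the MEF2 element matched in 2.92%. The short cores are common: the GATA core matched in 22.6%, the NKX2-5 element in 40.7% and the T-box core in 36.2% of the windows. Of the matches above, 3 share bases with an E-box, spelled CANNTG and present in 66.2% of windows: the NKX2-5 element in Hand2, the one nearer the start in Nppa, and the GATA core farther from the start in Nppb. A printable window was found for 7 of the 10 genes, not for Gata4, Gata6 or Tbx5. These matches describe letters in a window and show no binding.

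The left ventricle's defining transcripts were present in all groups but at unlike levels. All 12 cardiomyocyte markers (Tnnt2, Tnni3, Tnnc1, Myh6, Myl2, Myl3, Actc1, Mb, Ryr2, Ttn, Mybpc3 and Ckm) were lower in MI+BPD than in Sham and in MI than in Sham. Their summed level ran from 35257 to 52033 CPM in MI+BPD, from 22224 to 38223 CPM in MI and from 90034 to 93795 CPM in Sham. CPM here is the count as a rate of library size, scaled by trimmed mean of M values (TMM). The 10 fibroblast markers were all higher in MI+BPD and in MI than in Sham, with sums of 20681 to 22331 CPM in MI+BPD, 15262 to 22394 CPM in MI and 1248 to 1427 CPM in Sham. In bulk tissue, fewer cells of a type and less RNA per cell cannot be told apart, and the part of cell makeup in the results below was not tested. Library MI+BPD 1 stood apart from the other MI+BPD libraries, with the highest cardiomyocyte sum, mitochondrially encoded genes at 25.7% of its counts (17.6% and 17.7% in MI+BPD 2 and 3) and the 7 atrial markers, Nppa among them, at 1420 CPM (7496 and 5097 CPM). Most of that atrial sum was Nppa alone, at 1282 CPM in MI+BPD 1 and at 7228 and 4830 CPM in MI+BPD 2 and 3. Library MI 3 had the highest cardiomyocyte sum of its group, and MI 1 had 383 CPM of B and plasma cell markers against 4.37 to 22.3 CPM in the other MI libraries. The 7 epicardial and mesothelial markers summed to 103, 13.6 and 26.2 CPM in MI+BPD, 231, 52.4 and 12.7 CPM in MI, and 15.004, 29.0 and 22.6 CPM in Sham, highest in MI 1 and MI+BPD 1. Total counts were 17006222 to 17424302 in MI+BPD, 19101748 to 19269072 in MI and 14451410 to 17703461 in Sham.

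In infarcted ventricle (MI), 9 of the 10 genes fell relative to Sham and Tbx20 rose, all past an edgeR adjusted p of 0.05. The background is high: 68.9% of all genes tested were called in MI against Sham, 37% as higher and 31.9% as lower. The libraries of the MI and Sham groups did not overlap for any of the 10 genes, beside 74.4% of all genes (40.1% higher, 34.3% lower). The median log2 fold change of the 10 genes was -0.68, beside 0.07 over all genes tested. In MI+BPD against Sham, Tbx20 was again higher and 8 genes were lower, beside 59.6% of all genes called, 31.8% as higher and 27.8% as lower. The exception was Gata6, which did not pass. The libraries of MI+BPD and Sham did not overlap for the 8 lower genes, beside 68.5% of all genes either way and 32.7% lower. The median over the 10 genes was -0.55 in MI+BPD against Sham, beside 0.04 over all genes. Both comparisons use the same Sham libraries. These directions hold for TMM, median-ratio and upper-quartile scaling. Scaling by library totals alone moved the median of all genes in MI against Sham to 0.81. It called 5 of the 10 genes (3 higher, 2 lower), beside 10488 genes higher and 1765 lower of the 15138 tested. Nkx2-5 and Mef2d lost their calls, and Gata4, Mef2a and Srf changed sign without a call. Gata6 and Mef2c changed sign and were called as higher. In MI+BPD against Sham that scaling moved the median to 0.57. It called 4 of the 10 genes (2 higher, 2 lower), beside 9131 genes higher and 1383 lower of all tested. It ended the calls of Gata4, Nkx2-5, Mef2d and Srf. It also turned the sign of Gata6, Mef2a and Mef2c, with Gata6 called as higher. Relative to the median of all genes, 9 genes lay below and Tbx20 above in both comparisons under all 4 scalings. A change of scaling moves each gene and that median by nearly the same amount, so the 4 scalings could hardly differ here.

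**Figure D1:**
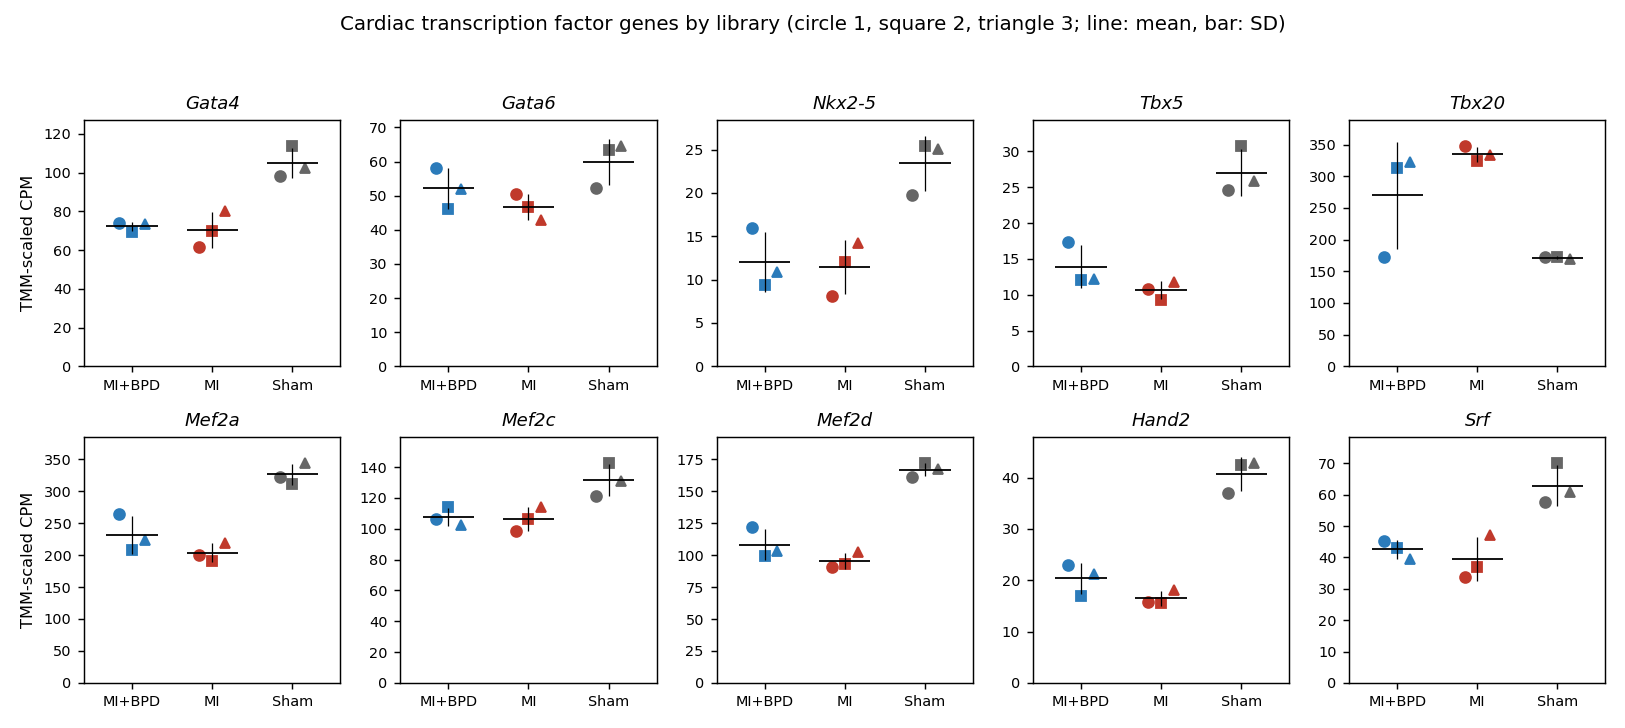
TMM-scaled CPM (vertical axes, from 0) of the 10 transcription factor genes in each library of the MI+BPD, MI and Sham groups, with circles, squares and triangles for libraries 1, 2 and 3, a line at the group mean and a bar for the SD (n = 3). In 9 panels the MI points lie below the Sham points and in the Tbx20 panel they lie above; MI+BPD 1 lies at 173 CPM of Tbx20, among the Sham libraries, while MI+BPD 2 and 3 lie at 314 and 322 CPM.

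Gata4 and Gata6, zinc-finger factors needed for early heart formation and for the hypertrophic response, both fell in MI against Sham with TMM scaling, Gata4 by more, and both changed sign with library totals alone. With library totals Gata6 was called as higher in MI (0.38, edgeR adjusted p = 0.0169) and in MI+BPD (0.32, edgeR adjusted p = 0.0441) than in Sham, and Gata4 was not called. Gata4 had 73.9, 69.6 and 73.3 CPM in MI+BPD, 61.7, 69.8 and 80.2 CPM in MI, and 98.4, 114 and 102 CPM in Sham. Every MI+BPD and MI library lay below every Sham library. The log2 fold change of Gata4 was -0.57 ± 0.10 (SE) in MI against Sham (edgeR adjusted p = 0.000846) and -0.54 ± 0.10 in MI+BPD against Sham (edgeR adjusted p = 0.00203). Gata6 had 58.2, 46.1 and 52.0 CPM in MI+BPD, 50.6, 46.8 and 42.8 CPM in MI, and 52.2, 63.2 and 64.4 CPM in Sham. Its MI libraries lay below all Sham libraries, and its MI+BPD libraries overlapped Sham. The log2 fold change of Gata6 was -0.36 ± 0.11 in MI against Sham (edgeR adjusted p = 0.0179), and the call was lost without Sham 2 (0.0615) or Sham 3 (0.0679). Between MI+BPD and Sham it was -0.20 ± 0.11 (edgeR adjusted p = 0.149), and Gata6 passed there by limma-voom with quality weights on all libraries (-0.28, adjusted p = 0.0208) and by edgeR without MI+BPD 1 (-0.32, adjusted p = 0.0414). Gata6os, annotated opposite Gata6 with 93 shared exon bases, was lower in MI than in Sham by a log2 fold change of -1.24 ± 0.19 (edgeR adjusted p = 0.000316). The strand setting of the counting is not given, so reads of such partners cannot be told apart.

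Nkx2-5, the homeobox gene of the conduction system and working myocardium, was at about one level in both infarct groups and higher in Sham. It had 15.99, 9.39 and 10.9 CPM in MI+BPD, 8.12, 12.01 and 14.3 CPM in MI, and 19.8, 25.4 and 25.1 CPM in Sham, from 183 to 329 counts per library. The Sham libraries were all above the others, and the MI+BPD and MI libraries were mixed. Its log2 fold change was -1.03 ± 0.24 in MI against Sham (edgeR adjusted p = 0.00388) and -0.96 ± 0.24 in MI+BPD against Sham (edgeR adjusted p = 0.00772). The SE was the largest among the 10 genes.

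The T-box genes Tbx5 and Tbx20 moved in opposite directions. TBX5 activates chamber and conduction genes with GATA4 and NKX2-5, and TBX20 is needed for the upkeep of adult heart muscle and for valve and endocardial cells. Tbx5 had 17.4, 12.1 and 12.2 CPM in MI+BPD, 10.8, 9.32 and 11.8 CPM in MI, and 24.6, 30.7 and 25.8 CPM in Sham. With TMM scaling the 3 groups did not overlap: MI was lowest, MI+BPD lay between and Sham was highest. The gap between MI and MI+BPD was narrow, from 11.8 CPM in MI 3 to 12.1 CPM in MI+BPD 2. Scaled by library totals alone, MI 1 lay above MI+BPD 2 and MI+BPD 3. The log2 fold change of Tbx5 was -1.34 ± 0.16 in MI against Sham (edgeR adjusted p = 0.000124), the lowest of the 10 genes, and -0.96 ± 0.16 in MI+BPD against Sham (edgeR adjusted p = 0.00118). Tbx20 had 173, 314 and 322 CPM in MI+BPD, 347, 324 and 333 CPM in MI, and 173, 173 and 169 CPM in Sham. The Sham libraries were close to each other, all MI libraries were higher, and library MI+BPD 1 lay among the Sham values. The log2 fold change of Tbx20 was 0.96 ± 0.20 in MI against Sham (edgeR adjusted p = 0.00233), and 22.7% of all genes had a larger one. Between MI+BPD and Sham it was 0.65 ± 0.20 (edgeR adjusted p = 0.0204). That call was lost without any 1 of the Sham libraries (adjusted p 0.0569, 0.0590 and 0.0627) and without MI+BPD 2 (0.0794) or MI+BPD 3 (0.0847); without MI+BPD 1 the value was 0.86 (adjusted p = 0.000105).

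The MEF2 genes all fell with TMM scaling, Mef2d most and Mef2c least, and Mef2a and Mef2c changed sign with library totals alone. With library totals Mef2c was called as higher in MI than in Sham (0.42, edgeR adjusted p = 0.00261), and Mef2a was not called. Mef2a, the most highly counted of the 10 genes in Sham, had 264, 207 and 224 CPM in MI+BPD, 200.4, 191 and 219.6 CPM in MI, and 323, 311 and 344 CPM in Sham. Mef2d, the MEF2 member tied to stress signalling in adult mouse heart, had 122, 99.1 and 103 CPM in MI+BPD, 90.7, 93.4 and 102 CPM in MI, and 161, 172 and 167 CPM in Sham. Mef2c, the member needed for looping and right ventricle formation in the mouse embryo, had 106, 114 and 102 CPM in MI+BPD, 98.3, 106 and 114 CPM in MI, and 121, 143 and 131 CPM in Sham. For all 3 genes every Sham library was above every infarct library, and the MI+BPD and MI libraries overlapped. In MI against Sham the log2 fold change was -0.68 ± 0.12 for Mef2a (edgeR adjusted p = 0.000647), -0.81 ± 0.10 for Mef2d (0.000118) and -0.31 ± 0.09 for Mef2c (0.0134). In MI+BPD against Sham it was -0.49 ± 0.12 for Mef2a (edgeR adjusted p = 0.00529), -0.62 ± 0.10 for Mef2d (0.000815) and -0.29 ± 0.09 for Mef2c (0.0213). The Mef2c call in MI against Sham was lost without Sham 2 (adjusted p = 0.0560), without MI 1 (0.0504) and with no filter on low counts (0.0616). In MI+BPD against Sham it was lost without Sham 2 (0.0859), Sham 3 (0.0528) or MI+BPD 3 (0.0805) and with no filter (0.0872). Mef2a shares 302 exon bases with Lysmd4 on the opposite strand, which had 273 to 337 counts per library, and Mef2d shares 531 with 1700113A16Rik, which had 3 to 16.

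Hand2 had 22.9, 16.9 and 21.3 CPM in MI+BPD, 15.8, 15.6 and 18.1 CPM in MI, and 37.0, 42.4 and 42.8 CPM in Sham. The Sham libraries were far above all the others, and the MI+BPD and MI libraries overlapped through MI+BPD 2. Its log2 fold change was -1.31 ± 0.12 in MI against Sham (edgeR adjusted p = 4.33e-05), the smallest p of the 10 genes, and -1.002 ± 0.12 in MI+BPD against Sham (edgeR adjusted p = 0.000252). Hand2os1, the long noncoding RNA that starts 124 bases from Hand2 on the other strand (RefSeq, GRCm38.p6), had 37.3, 24.3 and 27.4 CPM in MI+BPD, 18.6, 21.9 and 29.8 CPM in MI, and 57.4, 70.7 and 63.7 CPM in Sham. Its log2 fold change in MI against Sham was -1.45 ± 0.20 (edgeR adjusted p = 0.000211), close to that of Hand2. The pair shares 461 exon bases, and without the strand setting their reads cannot be told apart. Hand1, the related gene of the left ventricle in the embryo, had 1 count in all 9 libraries together and was not tested.

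Srf, which encodes the CArG box binding factor and has 2 such boxes in the promoter printed above, had 45.4, 43.0 and 39.4 CPM in MI+BPD, 33.9, 37.0 and 47.3 CPM in MI, and 57.6, 70.2 and 60.8 CPM in Sham. All infarct libraries were below all Sham libraries on this scale, and the MI value changed sign with library totals alone. The log2 fold change was -0.68 ± 0.13 in MI against Sham (edgeR adjusted p = 0.00129) and -0.56 ± 0.13 in MI+BPD against Sham (edgeR adjusted p = 0.00499).

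None of the 10 genes differed between MI+BPD and MI past the threshold, and none of the 15138 genes tested did (edgeR, 0% called). At an unadjusted edgeR p under 0.05 there were 2043 genes, 13.5% of those tested, and the smallest adjusted p was 0.369. By other tools, DESeq2 gave an adjusted p for only 1996 genes and called 10 of them higher and 7 lower. Of the 10 factor genes, 5 had an adjusted p from DESeq2, none of them called. Over all 15138 genes tested, limma-voom with quality weights called 771 higher and 221 lower, none of them among the 10. Without MI 3, edgeR called 1126 genes higher and 227 lower, again none of the 10. The log2 fold changes were positive for 9 of the 10 genes with TMM scaling and ran from -0.31 to 0.38, with a median of 0.13 beside 0.0028 over all genes. Under scaling by library totals alone, 7 of these 9 turned negative. All 9 remained above the median of all genes, which a change of scaling moves by nearly the same amount as each gene. Tbx5 and Hand2, with log2 fold changes of 0.38 ± 0.16 and 0.30 ± 0.12 (edgeR adjusted p = 0.369 each), were the 2 of the 10 genes with an unadjusted p under 0.05. Tbx20 had a log2 fold change of -0.31 ± 0.20 (edgeR adjusted p = 0.480), and of -0.09 without MI+BPD 1. With TMM scaling the groups did not overlap for Tbx5 (MI+BPD higher) and Tbx20 (MI+BPD lower), 2 of 10 genes, beside 13.9% of all genes (6.63% higher, 7.32% lower). For Tbx5 they did overlap with library totals alone.

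**Figure D2:**
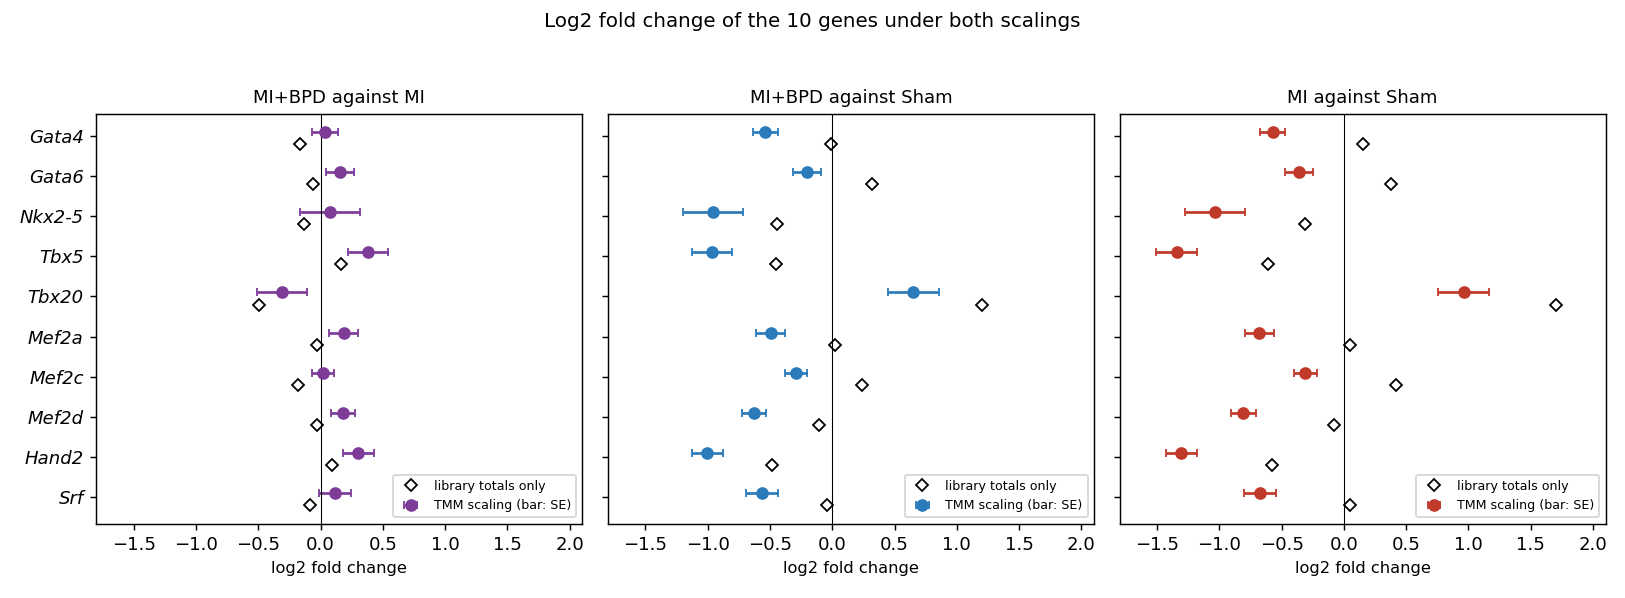
Log2 fold change (horizontal axes) of each of the 10 genes in MI+BPD against MI, MI+BPD against Sham and MI against Sham; filled circles are TMM-scaled estimates with SE bars and open diamonds are estimates with library totals as the only scaling. Tbx20 lies at 0.96 and 9 genes below 0 in MI against Sham with TMM scaling, and Gata4, Gata6, Mef2a, Mef2c and Srf lie above 0 with library totals alone.

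Ratios of counts within a library need no scaling between libraries, so 6 of them were compared between the 6 infarct libraries (MI+BPD and MI together) and the 3 Sham libraries. The ratio of Tbx5 to Tbx20 was 0.1004, 0.0384 and 0.0380 in MI+BPD, 0.0313, 0.0288 and 0.0355 in MI, and 0.142, 0.178 and 0.153 in Sham. Every infarct library was below every Sham library, with MI+BPD 1 nearest to Sham, and the difference was -1.94 on the log2 scale (2-sided exact permutation test, p = 0.0238, the smallest p these numbers allow; adjusted over the 6 ratios, 0.0714). In MI+BPD the ratio was above all MI values, by 0.73 on the log2 scale (2-sided exact permutation test, p = 0.1, the smallest that 3 against 3 allows). Most of that gap rested on MI+BPD 1. On the log2 scale it lay at -3.32, MI+BPD 2 and 3 at -4.70 and -4.72, and the MI mean at -4.98. The ratio of Mef2d to Mef2c was 1.15, 0.867 and 1.01 in MI+BPD, 0.923, 0.879 and 0.896 in MI, and 1.33, 1.21 and 1.28 in Sham. All infarct libraries were again below all Sham libraries, with a difference of -0.42 on the log2 scale (2-sided exact permutation test, p = 0.0238; adjusted 0.0714). Mef2a to Mef2c differed by -0.29 and Mef2d to Mef2a by -0.13 on the log2 scale (2-sided exact permutation tests, p = 0.0476 each; adjusted 0.0714 each), with overlapping libraries. Gata4 to Gata6 differed by -0.28 (exact permutation p = 0.0714; adjusted 0.0857) and Srf to Gata4 by -0.07 (exact permutation p = 0.357; adjusted 0.357). No ratio passed 0.05 after adjustment. Tbx20 alone took 19.2%, 33.7% and 33.5% of the counts of the 10 genes in MI+BPD, 37.8%, 35.8% and 33.8% in MI, and 16.2%, 15.1% and 14.9% in Sham, a share chosen for display after its values were seen.

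**Figure D3:**
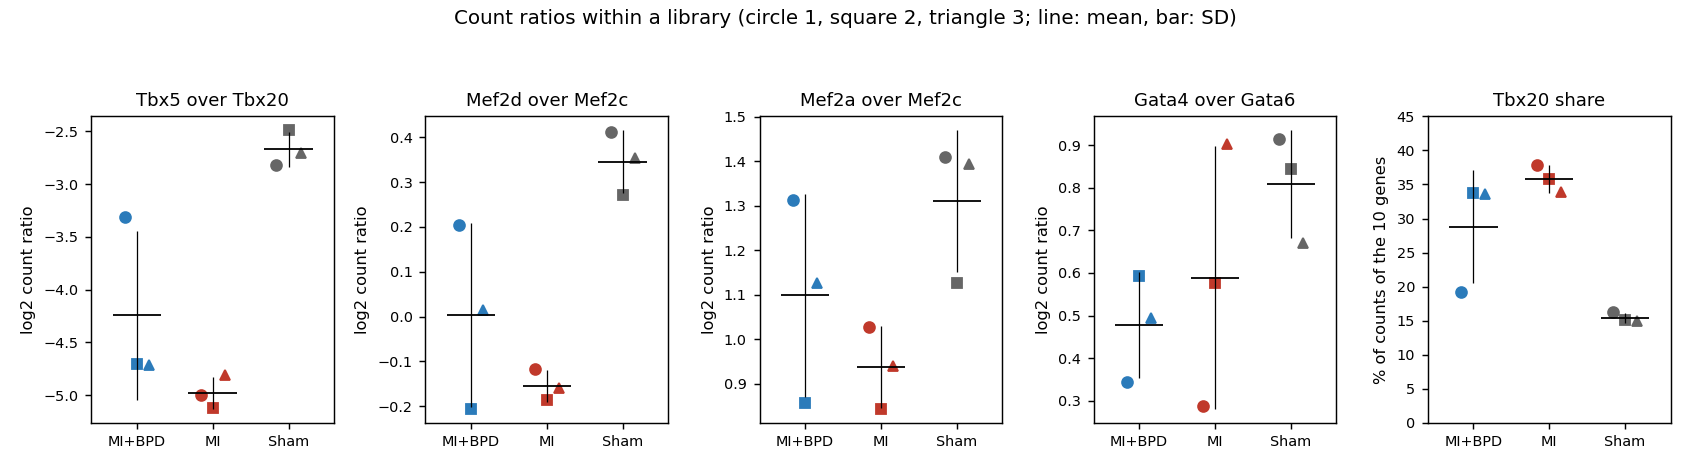
Log2 ratio of counts within each library for 4 pairs of genes, and at the right the share of Tbx20 in the counts of the 10 genes (%), by group, with circles, squares and triangles for libraries 1, 2 and 3, a line at the mean and a bar for the SD (n = 3). For Tbx5 over Tbx20 and Mef2d over Mef2c all MI+BPD and MI points lie below the Sham points, and MI+BPD 1 is the highest of them.

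Set against the 12 cardiomyocyte markers of the same library, 7 of the 10 genes had more counts per 1000 marker counts in every MI+BPD library than in any Sham library, and 9 did in MI against Sham. Over all genes tested the shares were 86% in MI+BPD and 90.6% in MI, so these counts are near the background of a scale on which the markers themselves were lower after infarction. Nkx2-5, Tbx5 and Hand2 overlapped Sham in MI+BPD, and Tbx5 overlapped Sham in MI. With Myh6 and Ttn left out of the markers, Hand2 overlapped in MI as well and 8 genes were above Sham. Tbx20 had 7.01 ± 3.20 counts per 1000 marker counts in MI+BPD, 12.6 ± 3.55 in MI and 1.87 ± 0.0643 in Sham (SD, n = 3 each), 3.74 times and 6.73 times the Sham mean in MI+BPD and MI. Gata4 had 1.80 ± 0.340 in MI+BPD, 2.597 ± 0.438 in MI and 1.15 ± 0.0904 in Sham (SD, n = 3 each). Over the other genes the fold over Sham ran from 1.13 for Hand2 to 1.96 for Gata6 in MI+BPD, and from 1.34 for Tbx5 to 2.75 for Mef2c in MI. These are values with no test, and the marker genes are themselves targets of these factors.

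**Figure D4:**
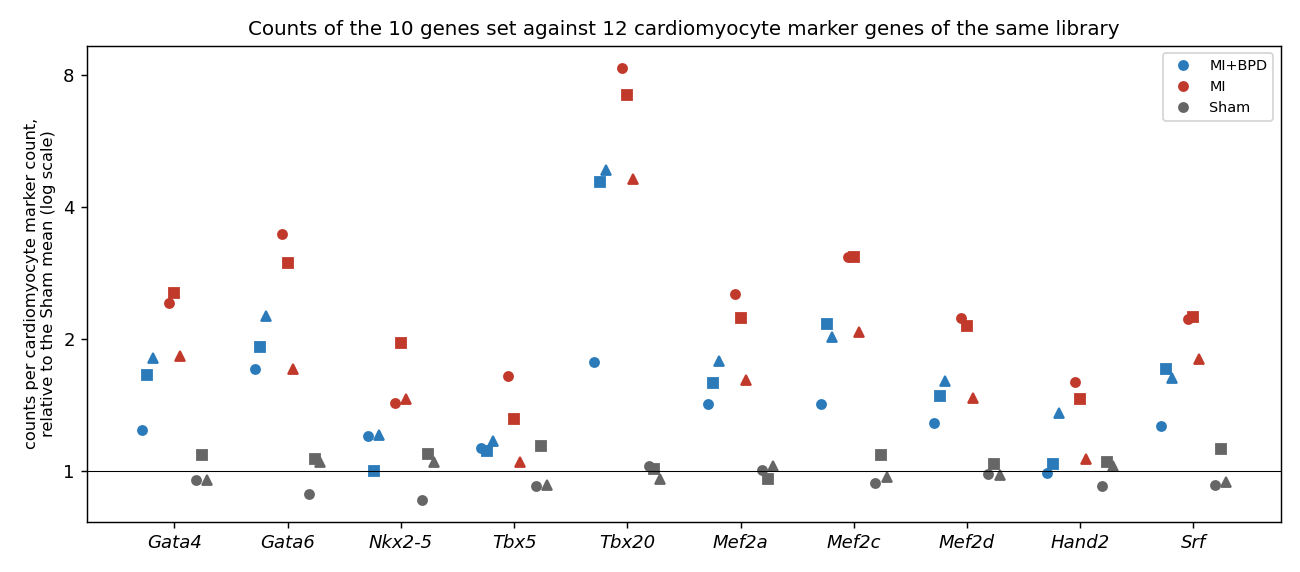
Counts of each of the 10 genes per count of 12 cardiomyocyte markers in the same library, divided by the Sham mean (vertical log axis), with MI+BPD, MI and Sham side by side and circles, squares and triangles for libraries 1, 2 and 3. The MI points of Tbx20 are the highest of all genes (mean 6.73 times the Sham mean), and the MI points of Tbx5 overlap Sham.

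Per length of gene, by CPM per kilobase of all annotated exons (GENCODE M21), the order in Sham was Mef2d (27.9), Gata4 (26.8), Mef2a (22.2), Srf (21.7), Hand2 (17.3), Tbx20 (14.3), Nkx2-5 (13.6), Gata6 (9.21), Mef2c (8.38) and Tbx5 (5.79). The Sham libraries overlapped between the neighbours Mef2d and Gata4, Mef2a and Srf, Tbx20 and Nkx2-5, and Gata6 and Mef2c. In MI, Tbx20 came first on this scale at 27.9 CPM per kilobase, with libraries between 27.0 and 28.9, followed by Gata4 at 18.1. In MI+BPD, Tbx20 had 22.5 and Gata4 18.5, and their libraries overlapped through MI+BPD 1. The order depends on the length used: per kilobase of the longest transcript, Mef2a led in Sham at 58.9, and in MI Mef2a and Tbx20 both had 36.8.

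Among 16 relatives of the same families, 7 were expressed enough to be tested. Of these 7, 2 were higher and 2 lower in MI than in Sham, beside 37% and 31.9% of all genes. Tbx18, of epicardium and pericytes, had 17.9 ± 2.12 CPM in MI+BPD, 23.0 ± 5.55 CPM in MI and 6.09 ± 1.18 CPM in Sham (SD, n = 3 each), with a log2 fold change of 1.92 ± 0.21 in MI against Sham (edgeR adjusted p = 7.61e-05). Tbx15 also rose, by 2.78 ± 0.67 (edgeR adjusted p = 0.00457) with group means of 1.42 CPM in MI+BPD, 1.80 CPM in MI and 0.256 CPM in Sham. Gata2, of endothelium and blood cells, fell by 1.04 (edgeR adjusted p = 0.000703), and Tbx3, of the conduction system, fell by 1.47 (edgeR adjusted p = 0.000858). Gata5 had 1.56, 0 and 0.406 CPM in MI+BPD, 3.05, 0.570 and 0.046 CPM in MI, and 0, 0.262 and 0.229 CPM in Sham, and did not pass (edgeR adjusted p = 0.142). Its 2 highest libraries, MI 1 and MI+BPD 1, were also those with the highest epicardial and mesothelial markers, whose part in these values was not tested. Isl1, of the second heart field, had at most 13 counts in a library and Mef2b at most 6, and neither was tested.

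Of 18 cofactors, 2 were higher and 10 lower in MI than in Sham, beside 37% and 31.9% of all genes. The median log2 fold change of the cofactors was -0.34. Myocd, the heart and smooth muscle partner of SRF, had 31.3 ± 6.33 CPM in MI+BPD, 27.3 ± 8.70 CPM in MI and 66.5 ± 1.78 CPM in Sham (SD, n = 3 each), a log2 fold change of -1.29 ± 0.21 in MI against Sham (edgeR adjusted p = 0.000497). Mrtfa, the actin-sensing SRF partner, had 15.6 ± 1.45 CPM in MI+BPD, 17.1 ± 3.25 CPM in MI and 7.92 ± 0.888 CPM in Sham (SD, n = 3 each), a log2 fold change of 1.10 ± 0.16 (edgeR adjusted p = 0.000277). These partners moved in opposite directions, and Mrtfb did not pass, at 0.06 ± 0.11 (edgeR adjusted p = 0.610). Elk3, an ETS partner of SRF, rose by 0.57 ± 0.09 (edgeR adjusted p = 0.000395). Hopx, a homeodomain protein without DNA binding that restrains SRF, fell by 2.597 on the log2 scale (edgeR adjusted p = 0.000434), with 133, 55.6 and 76.8 CPM in MI+BPD, 25.3, 29.4 and 67.9 CPM in MI, and 243, 251 and 248 CPM in Sham. Smarcd3, the chromatin subunit that works with TBX5 and GATA4, fell by 0.69 (edgeR adjusted p = 0.000212) and Lmod2, counted in this list although it encodes a thin filament protein and not a transcriptional cofactor, fell by 1.19 (edgeR adjusted p = 0.000235). Zfpm2, the GATA4 partner FOG2, had 29.5 ± 3.01 CPM in MI+BPD, 27.7 ± 2.76 CPM in MI and 30.6 ± 0.389 CPM in Sham (SD, n = 3 each), and did not pass in MI against Sham (-0.14 ± 0.10, edgeR adjusted p = 0.217).

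Of 24 other heart transcription factors tested, Tbx3 again among them, 4 were higher and 14 lower in MI than in Sham. The shares of all genes were 37% higher and 31.9% lower. Klf15 fell by 2.04 and Esrrg, a regulator of mitochondrial genes, by 1.60 on the log2 scale (edgeR adjusted p 0.000106 and 9.92e-05). Nfatc4, a calcineurin-dependent factor, rose by 2.44 ± 0.16 and Foxp1 by 1.13 ± 0.10 (edgeR adjusted p 8.77e-06 and 3.57e-05). Under scaling by totals alone, the counts of higher and lower genes in MI against Sham were 3 and 1 for the relatives, 11 and 5 for the cofactors, 7 and 11 for these factors, and 5 and 16 for the sarcomere and pump genes below, and Smarcd3 changed sign. Over all 15138 genes tested, that scaling called 10488 as higher and 1765 as lower.

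The genes that these factors are known to drive did not move as a single group. Of 29 sarcomere, pump and channel genes, 23 were lower and 4 higher in MI than in Sham, beside 31.9% and 37% of all genes. The median log2 fold change of the 29 genes was -1.45. This list holds all the cardiomyocyte markers except Ttn. Among the lower ones were Myh6, the adult myosin heavy chain (-2.23 ± 0.34, edgeR adjusted p = 0.000356), Atp2a2, the calcium pump (-2.43 ± 0.37, edgeR adjusted p = 0.000335), Ryr2, the calcium release channel (-1.84 ± 0.26, edgeR adjusted p = 0.000241), Tnnt2 (-1.69 ± 0.24, edgeR adjusted p = 0.000238), Ckmt2, the mitochondrial creatine kinase (-2.01 ± 0.27, edgeR adjusted p = 0.000211), Kcnj2, a potassium channel (-1.43 ± 0.20, edgeR adjusted p = 0.000232), and Corin, the protease that activates the natriuretic peptides (-1.71 ± 0.19, edgeR adjusted p = 8.52e-05). The fall was smaller for Gja1, the ventricular connexin (-0.92 ± 0.16, edgeR adjusted p = 0.000783). The 4 higher ones were Myh7, Gja5, Acta1 and Xirp2, the last 3 named after their values were seen. Myh7, the fetal myosin heavy chain, had 737, 2669.7 and 1601 CPM in MI+BPD, 1589.8, 1331 and 2782 CPM in MI, and 88.6, 107 and 42.8 CPM in Sham (log2 fold change in MI against Sham 4.58 ± 0.57, edgeR adjusted p = 0.000136).

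All 7 stress and hormone genes tested rose in MI against Sham, beside 37% of all genes called as higher. The median log2 fold change of the 7 genes was 2.05. Myh7 and Acta1 stand in this list and among the 4 higher sarcomere genes, and Nppa is also an atrial marker. Nppa, whose promoter is printed above with its GATA, NKX2-5 and T-box cores, had 1282, 7228 and 4830.2 CPM in MI+BPD, 5458, 6721 and 7091 CPM in MI, and 187, 138 and 54.4 CPM in Sham. The low MI+BPD library was MI+BPD 1, the library in which Tbx20 was at the Sham level. These Nppa values are the same ones that made up most of the atrial marker sums above. The log2 fold change of Nppa was 5.67 ± 0.71 in MI against Sham (edgeR adjusted p = 0.000144) and -0.53 ± 0.58 in MI+BPD against MI (edgeR adjusted p = 0.676). Nppb had 206, 457 and 351 CPM in MI+BPD, 303, 391 and 493 CPM in MI, and 98.4, 173 and 113 CPM in Sham (log2 fold change in MI against Sham 1.63 ± 0.32, edgeR adjusted p = 0.00151). Ankrd1 rose by 2.42 ± 0.39 (edgeR adjusted p = 0.00051) and Edn1, endothelin, by 1.57 ± 0.18 (edgeR adjusted p = 0.000106).

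Of 16 cytoskeletal SRF targets, 13 were higher and none lower in MI than in Sham, beside 37% and 31.9% of all genes. Srf itself was lower with TMM scaling and changed sign with library totals alone. Actn1 rose by 2.72 ± 0.25 (edgeR adjusted p = 3.91e-05), Flna by 1.31 ± 0.14 (edgeR adjusted p = 7.85e-05), Tgfb1i1 by 1.28 ± 0.13 (edgeR adjusted p = 6.94e-05) and Tpm4 by 1.09 ± 0.11 (edgeR adjusted p = 5.44e-05). Acta2, smooth muscle actin, had 191, 258 and 228 CPM in MI+BPD, 269, 365 and 179.8 CPM in MI, and 106, 178 and 224 CPM in Sham, and did not pass (0.68 ± 0.30, edgeR adjusted p = 0.0702). Acta2 did pass by limma-voom (adjusted p = 0.00996) and by edgeR without Sham 3 (0.0369), without MI 3 (0.0234) and with library totals alone (0.00273). Of 8 immediate early SRF targets, 4 were higher and none lower, beside the same shares of all genes. Egr2 rose by 3.39 ± 0.32 (edgeR adjusted p = 4.29e-05), Egr3 by 2.29 ± 0.38 (edgeR adjusted p = 0.000606) and Junb by 1.49 ± 0.24 (edgeR adjusted p = 0.000449). Ier2 rose by 0.43 ± 0.17 (edgeR adjusted p = 0.0414), a call lost by DESeq2 and without several single libraries. Fos and Egr1 did not pass (edgeR adjusted p 0.287 and 0.109), with Fos at 15.1, 38.7 and 6.33 CPM among the Sham libraries alone. Both passed as higher without Sham 2 (edgeR adjusted p 0.0213 and 0.0281) and with library totals alone (edgeR adjusted p 0.0490 and 0.00572). The fibroblast markers and 9 of 10 macrophage markers rose in the same libraries. The macrophage marker Cd163 was lower in MI than in Sham without passing (-1.27, edgeR adjusted p = 0.0822). The part of these markers' cells in the counts was not tested. Against Sham, MI+BPD had 13 higher of 16 cytoskeletal targets, 3 higher of 8 immediate early targets and 7 higher of 7 stress genes. It also had 22 lower and 4 higher of 29 sarcomere and pump genes. Over all genes, 31.8% were higher and 27.8% lower in that comparison. No gene of these lists passed between MI+BPD and MI.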

How the data were processed

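Per the labels' protocols, TRIzol RNA of mouse left ventricle with an integrity number over 7.0 went into VAHTS Universal V6 libraries, read as 150 bp pairs on DNBSEQ-T7. The authors deposited read counts by symbol, not normalized. The submitters' processing notes name STAR and the builds mm10, GRCm39 and mm39 with no role; the counting program, its strand setting and its annotation are, in the sources used here, not given. Of 55367 symbols, 26591 had no count. 

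Counts of all 9 libraries were fitted by group in R 4.3.3 with edgeR 4.0.16 (TMM factors, filterByExpr with minimum count 10 and total 15, robust quasi-likelihood F test, 6 residual degrees of freedom, biological coefficient of variation 0.167), and 15138 genes, holding 99.9% of counts, were tested. The p-values were Benjamini-Hochberg adjusted across these genes, and calls used a threshold of 0.05. A single read is worth 0.0692 CPM in the smallest library, and reads carry no molecular identifiers. Ratios of counts were compared by 2-sided exact permutation tests. The procedure was run on simulated data with few changed genes and the same spread for every gene, so the choice of scaling was not tested there. Alternatives were DESeq2 1.42.0, limma-voom (limma 3.58.1), other scalings, filters, a replicate block and leaving out each library; leaving out MI 1 and MI+BPD 1 together was added after the data were seen. Libraries of a group differed by more than sampling noise (chi-square per degree of freedom 3.84 to 86.2).

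Genes named are all 10 factors, up to 4 called genes of smallest adjusted p in MI against Sham from each other list, and 22 further genes fixed by name, 1 of which is not reported here. The members and lists were chosen with earlier results of these data known. Promoters are RefSeq windows of GRCm38.p6, and exon lengths and overlaps are from GENCODE M21, which need not be the annotation used for counting.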

Additional observations from a re-analysis of the deposited data

How the results depend on the processing

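Over the 10 genes, 188 of the alternative values in MI against Sham kept their sign and their side of the threshold, 7 lost the call and 5 reversed. In MI+BPD against Sham 181 kept both, 13 lost the call, 3 gained it and 3 reversed, and in MI+BPD against MI 176 kept both and 19 reversed. Scaling by library totals alone called 5 of the 10 genes in MI against Sham, beside 10488 higher and 1765 lower of all genes tested. It called 4 in MI+BPD against Sham, beside 9131 higher and 1383 lower. It reversed MI against Sham for Gata4 (0.16), Gata6 (0.38), Mef2a (0.051), Mef2c (0.42), Srf (0.048), Zfpm2 (0.60) and Smarcd3 (0.042), MI+BPD against Sham for Gata6 (0.32), Mef2a (0.025) and Mef2c (0.24), and MI+BPD against MI for Gata4 (-0.17), Gata6 (-0.064), Nkx2-5 (-0.13), Mef2a (-0.026), Mef2c (-0.18), Mef2d (-0.030) and Srf (-0.086). Other signs in MI+BPD against MI turned with upper-quartile factors (Gata4 -0.012, Mef2c -0.028), limma-voom (Nkx2-5 -0.10, Myh7 0.32) and without both MI 1 and MI+BPD 1 (Gata4 -0.080, Nkx2-5 -0.38, Mef2c -0.036, Srf -0.041, Myh7 0.048). Leaving out 1 library at a time, values in MI+BPD against MI ran from -0.053 to 0.14 for Gata4, from -0.19 to 0.26 for Nkx2-5, from -0.035 to 0.076 for Mef2c and from -0.70 to 0.20 for Myh7, and in MI against Sham from -0.012 to 0.14 for Mrtfb, which also turned with limma-voom (-0.022) and without both MI 1 and MI+BPD 1 (-0.033). The cause was not tested. With 1 library left out, 8 to 10 of the 10 genes were called in MI against Sham and 7 to 10 in MI+BPD against Sham. The background in these fits, of 15337 to 15611 genes tested, was also high. In MI against Sham 5097 to 5639 genes were called higher and 4381 to 5001 lower. In MI+BPD against Sham 4118 to 4868 were called higher and 3359 to 4470 lower.

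Among ratios of counts on the log2 scale, where 3 libraries a side allow no exact p under 0.1, MI+BPD against Sham and MI against Sham gave -1.57 and -2.31 for Tbx5 over Tbx20 (exact p = 0.1 each), -0.34 and -0.50 for Mef2d over Mef2c (exact p = 0.1 each), -0.21 and -0.37 for Mef2a over Mef2c (exact p = 0.2 and 0.1), and -0.13 and -0.13 for Mef2d over Mef2a (exact p = 0.1 and 0.2). Leaving out 1 library at a time, the difference between infarct and Sham libraries ran from -2.20 to -1.84 for Tbx5 over Tbx20, from -0.48 to -0.39 for Mef2d over Mef2c, from -0.38 to -0.24 for Mef2a over Mef2c, from -0.17 to -0.073 for Mef2d over Mef2a and from -0.35 to -0.22 for Gata4 over Gata6, which had an exact p of 0.0357 without MI 3.

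No source used here states that the replicate numbers pair the samples. Same-numbered libraries had correlations of deviations between -0.158 and 0.194, and differently numbered ones between -0.277 and 0.207. With 3 libraries a group, these correlations cannot decide whether the numbers pair samples. With the replicate number as a block, 10 of the 10 genes were called in MI against Sham, 9 in MI+BPD against Sham and 0 between MI+BPD and MI. Over all genes the block left 5399 higher and 4655 lower in MI against Sham. In MI+BPD against Sham it left 4565 higher and 3892 lower, and between MI+BPD and MI 0. The lowest counts of the 10 genes were those of Nkx2-5, at 183 to 329 per library.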
